A study of Mus musculus with 6 samples.

Results

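The skeletal muscle contractile genes followed here were 34 genes that encode the sarcomere, its calcium supply, its energy enzymes and its master regulators. They were taken by symbol from a list drawn up with earlier results of these data known, and each was read from 1 probe set with a single gene symbol, the brightest over all 6 arrays. All 34 were found, of 19938 genes with a single symbol, and Trdn alone had more than 1 probe set. They were grouped as 10 genes of fast fibres, 6 of slow fibres, 2 developmental myosin heavy chains and 16 genes that fibre types share.

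RNA of whole cornea was measured on Affymetrix Mouse Gene 1.0 ST arrays at postnatal day 3. The WT group held 3 arrays of wild-type littermates and the DN-Clim group 3 arrays of K14-DN-Clim transgenic mice, in which the keratin 14 promoter, active in basal epithelial cells, drives a dominant-negative CLIM, a transcriptional cofactor. Non-corneal tissue was dissected away and RNA purity was checked by quantitative PCR for markers of adjacent tissues, per the labels' protocols. The labels do not say if each array came from 1 animal or from several, and the p-values therefore cover the spread among these arrays alone, part of which can be technical.

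Skeletal muscle contracts when calcium leaves the sarcoplasmic reticulum, binds troponin on the thin filament and lets myosin heads pull on actin. Fast and slow fibres use different isoforms of myosin, troponin and calsequestrin, several slow isoforms also serve the heart, and newborn fibres still make embryonic and neonatal myosin. The cornea holds no skeletal muscle, but the extraocular muscles attach to the eyeball behind it. In whole-tissue RNA, more cells of a type and more RNA per cell cannot be told apart.

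Values are log2(probe set intensity + 16), and differences are DN-Clim minus WT unless another pair is named. Fold values are 2 to the power of such a difference, so they understate the change of dim genes. Levels of different genes are not compared. Array medians ranged from 7.95 to 8.21 on this scale. The tissue markers of cornea were bright on every array, Krt12, the keratin of corneal epithelium, at 11.04 to 11.95 and Krt14 at 11.30 to 12.26. DN-Clim replicates 1 and 2 stood apart by lens genes. They also stood apart by high pigment cell and retina markers and by low keratocyte, tendon and corneal epithelial markers, given below. DN-Clim replicate 3 stood apart by the muscle genes described here and by low pigment cell and retina markers, whose median there was -1.11 relative to the WT mean. Results are therefore given array by array.

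The muscle signal belonged mostly to a single array. DN-Clim replicate 3 held the highest value for 27 of 34 members, where it did so for 34.6% of all 23410 probe sets tested. It exceeded each of the other 5 arrays by more than 0.5 for 13 of 34 members, against 3.56% of all probe sets. Both shares were lower among probe sets with a WT mean above the median (18.5% and 1.37%), so they were higher among dim ones. Only 8 of 34 members had a WT mean above the median, so the shares over all probe sets are low as a background for most members. On DN-Clim replicate 3 the members lay a median 0.54 above the WT mean, against 0.06 over all probe sets. On DN-Clim replicates 1 and 2 the medians were 0.03 and -0.32, and DN-Clim replicate 2 was the lowest array for 21 of 34 members (39.6% of all probe sets were lowest there). By class, DN-Clim replicate 3 was the highest array for 9 of 10 fast, 5 of 6 slow, 1 of 2 developmental and 12 of 16 shared members. The remaining 7 members were highest on WT replicate 1 (2 members, 14.5% of all probe sets), WT replicate 2 (1, 10.9%), WT replicate 3 (1, 8.44%), DN-Clim replicate 1 (2, 9.91%) or DN-Clim replicate 2 (1, 21.6%). No member was lowest on DN-Clim replicate 3 (18.8%), and apart from DN-Clim replicate 2 the lowest array was WT replicate 1 for 4 (12.9%), WT replicate 2 for 5 (5.99%), WT replicate 3 for 3 (7.16%) and DN-Clim replicate 1 for 1 (15.6%). As a group comparison, DN-Clim against WT, none of the 34 members passed an adjusted p of 0.05 (limma with Benjamini-Hochberg adjustment over all probe sets, 0.0128% of which passed). At an unadjusted p under 0.05 there were 2 members higher, Mylpf and Pgam2 (1.45% of all probe sets), and 2 lower, Chrna1 and Myom1 (4.49%), where 5.94% of all probe sets lay past that p in either direction.

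**Figure D1:**
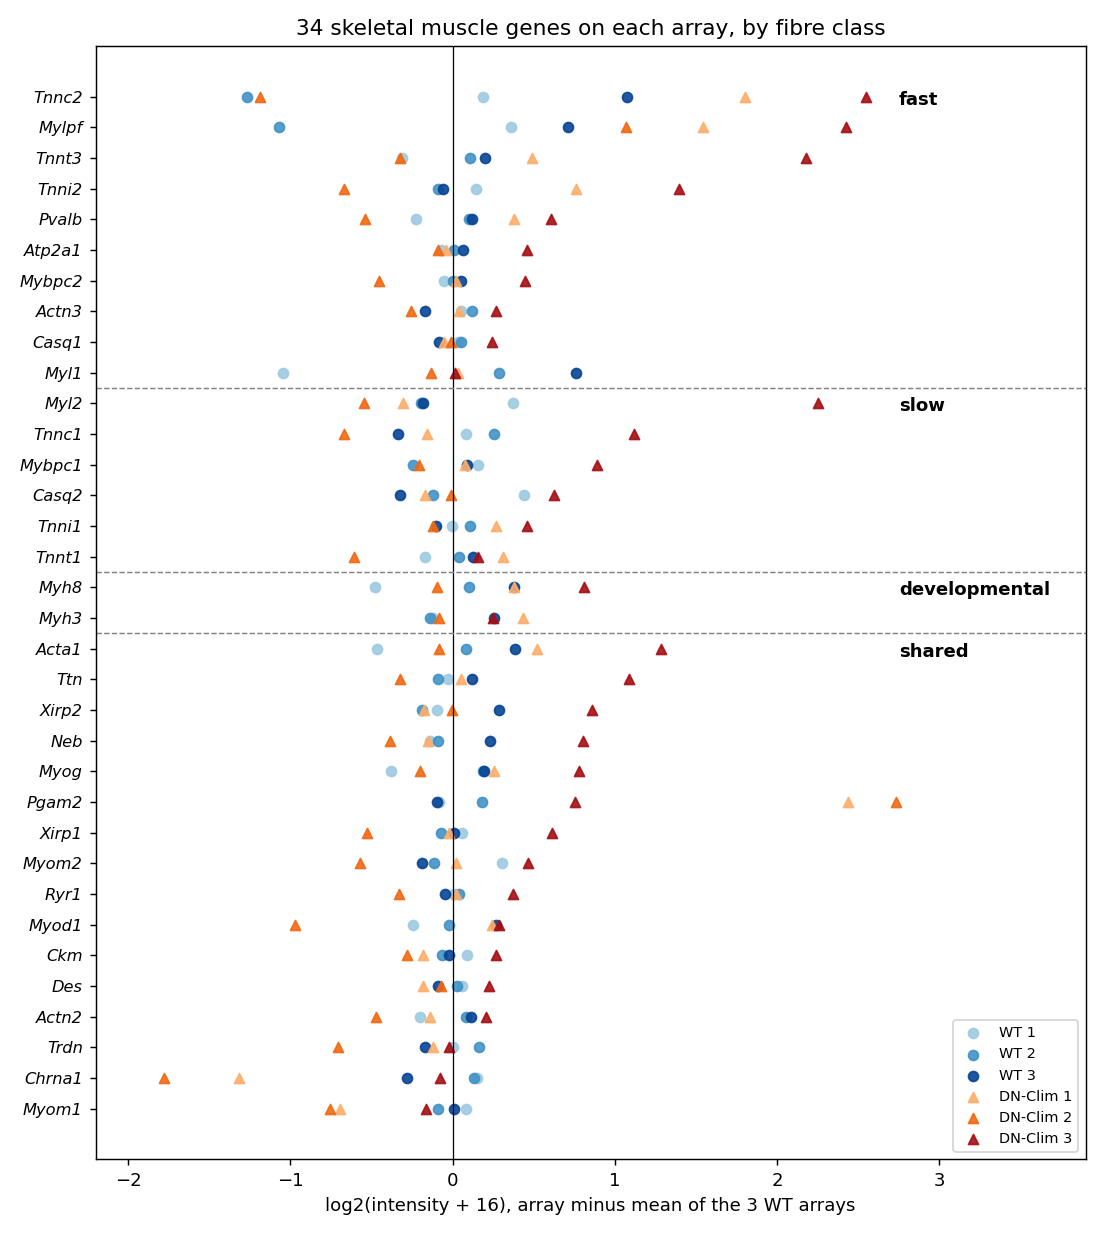
Each row is 1 of the 34 muscle genes and each symbol 1 array, as log2(intensity + 16) minus the mean of the 3 WT arrays; circles are WT and triangles DN-Clim, and dashed lines part the fibre classes. The dark red triangle of DN-Clim replicate 3 is the rightmost symbol in 27 rows, while Pgam2 is led by DN-Clim replicates 1 and 2.

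Promoter windows are shown for 4 members on which the results turn. Mylpf and Pgam2 are the members for which all DN-Clim arrays lay above all WT arrays, Myl2 is the member with the widest lead of DN-Clim replicate 3, and Tnnc2 is the one furthest above the WT mean on that array. Each is the 250 bases before a RefSeq gene start in build GRCm38.p6, 5′ to 3′ on the gene's strand. Capitals mark the E-box CAGCTG, and CACCTG on either strand, the kind of site that MyoD and myogenin bind. The windows are chr7:127211358-127211607 (plus strand) for Mylpf, chr5:122092939-122093188 (plus strand, the second of its listed starts) for Myl2, chr2:164779735-164779984 (minus strand) for Tnnc2 and chr11:5803797-5804046 (minus strand) for Pgam2.
Mylpf: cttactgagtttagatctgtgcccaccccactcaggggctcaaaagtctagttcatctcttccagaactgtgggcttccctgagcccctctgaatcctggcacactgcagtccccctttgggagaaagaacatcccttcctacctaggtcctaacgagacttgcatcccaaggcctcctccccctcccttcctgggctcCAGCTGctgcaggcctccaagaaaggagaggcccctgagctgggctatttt
Myl2: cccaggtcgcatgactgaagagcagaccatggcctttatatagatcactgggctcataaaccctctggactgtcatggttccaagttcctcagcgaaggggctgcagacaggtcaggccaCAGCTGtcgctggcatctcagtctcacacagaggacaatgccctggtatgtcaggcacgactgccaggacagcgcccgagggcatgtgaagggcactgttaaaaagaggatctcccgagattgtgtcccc
Tnnc2: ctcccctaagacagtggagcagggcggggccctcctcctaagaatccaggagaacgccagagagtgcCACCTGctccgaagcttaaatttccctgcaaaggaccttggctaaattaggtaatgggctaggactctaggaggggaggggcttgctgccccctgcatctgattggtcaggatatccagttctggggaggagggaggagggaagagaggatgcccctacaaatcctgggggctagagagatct
Pgam2: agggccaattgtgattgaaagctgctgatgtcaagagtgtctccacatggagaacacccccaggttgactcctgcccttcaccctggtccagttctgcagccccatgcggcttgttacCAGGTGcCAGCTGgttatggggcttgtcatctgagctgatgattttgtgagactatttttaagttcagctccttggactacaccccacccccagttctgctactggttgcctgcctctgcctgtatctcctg

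Mylpf held CAGCTG 51 bases before its start and Myl2 130 bases before its second listed start. The 250 bases before the first listed Myl2 start, chr5:122092474-122092723, held neither E-box. Pgam2 held CAGCTG at 125 bases, next to a CACCTG on the other strand at 132 bases, and Tnnc2 held CACCTG at 183 bases. The RefSeq table gave windows of 250 bases before to 50 after a start for 26 of the 34 members, 29 windows in all. CAGCTG was in 14 of these 29 windows, from 12 genes, and in 16.3% of all 32851 windows of the same length. The 2 Tnni1 windows overlap and share 1 site, and the first Myl2 window held its site 34 bases after the start. CACCTG, searched on both strands, was in 8 of 29 and in 20.21% of all. MEF2 sites were in 2 of 29 (Xirp2 and Ttn) and in 0.56% of all, CArG boxes in 2 of 29 (Acta1 and Myom1) and in 1.63%, and CATTCCT, the MCAT motif, on both strands in 2 of 29 (Acta1 and Mybpc2) and in 5.36%. The marked sites did not overlap one another in the windows printed. Chrna1, which read lower on DN-Clim replicates 1 and 2, also held CAGCTG, at 44 and at 92 bases before its start. A match is a description of letters only.

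Mylpf and Myl2 were high on DN-Clim replicate 3, and the third light chain, Myl1, was not. Mylpf, the fast regulatory light chain, read 7.76, 6.33 and 8.12 in WT replicates 1 to 3 and 8.95, 8.47 and 9.83 in DN-Clim replicates 1 to 3. All DN-Clim arrays lay above all WT arrays, with DN-Clim replicate 3 the highest and WT replicate 2 the lowest. The means were 7.40 ± 0.94 in WT and 9.08 ± 0.69 in DN-Clim (SD, n = 3 each). They were 1.68 apart (SE 0.474), which did not pass (limma adjusted p = 0.622). Relative to the WT mean, Mylpf was 2.92-fold, 2.1-fold and 5.37-fold on DN-Clim replicates 1, 2 and 3.

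Myl2, the slow and ventricular regulatory light chain, read 8.29, 7.72 and 7.73 on the WT arrays and 7.61, 7.37 and 10.16 on the DN-Clim arrays. It was high on DN-Clim replicate 3 alone, and the other DN-Clim arrays lay below every WT array. The difference was 0.47 (SE 0.624, limma adjusted p = 0.999), and DN-Clim replicate 3 alone was 4.76-fold over the WT mean. Myl1, the fast essential light chain, behaved otherwise: it read 6.17, 7.50 and 7.98 on the WT arrays and 7.25, 7.09 and 7.24 on the DN-Clim arrays. The DN-Clim arrays lay inside the WT range, and Myl1 was the 1 fast gene not highest on DN-Clim replicate 3.

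The fast troponins were also led by DN-Clim replicate 3. Troponin is the calcium switch of the thin filament, with subunits T, I and C. Tnnt3, fast troponin T, read 8.74, 9.16 and 9.25 on the WT arrays and 9.54, 8.72 and 11.22 on the DN-Clim arrays. It was 4.52-fold over the WT mean on DN-Clim replicate 3 and 1.41-fold on replicate 1, while replicate 2 lay just below the lowest WT array. Tnni2, fast troponin I, read 8.93, 8.69 and 8.72 on the WT arrays and 9.54, 8.11 and 10.17 on the DN-Clim arrays. Tnnc2, fast troponin C, read 9.88, 8.43 and 10.77 on the WT arrays and 11.49, 8.51 and 12.24 on the DN-Clim arrays. Tnnc2 also varied widely within WT (SD 1.18, n = 3), so that the group difference of 1.05 (SE 0.891) was close to the spread between WT arrays. The differences of Tnnt3 (0.78, SE 0.522) and Tnni2 (0.50, SE 0.436) were smaller than the spread between DN-Clim arrays (SD 1.28 and 1.06), and all 3 had a limma adjusted p of 0.999.

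The slow troponins moved less on the same array. Tnnt1, slow troponin T, read 9.26, 9.46 and 9.55 on the WT arrays and 9.74, 8.81 and 9.58 on the DN-Clim arrays, so DN-Clim replicate 3 was 1.12-fold over the WT mean, beside 4.52-fold for Tnnt3. Tnni1, slow troponin I, read 8.30, 8.41 and 8.19 on the WT arrays and 8.57, 8.18 and 8.76 on the DN-Clim arrays, 1.38-fold on DN-Clim replicate 3 beside 2.63-fold for Tnni2. Tnnc1, the troponin C of slow fibres and heart, read 8.91, 9.09 and 8.49 on the WT arrays and 8.67, 8.17 and 9.95 on the DN-Clim arrays, 2.17-fold beside 5.85-fold for Tnnc2. In each of these 3 pairs the fast isoform stood further above WT on DN-Clim replicate 3. For the light chains the values were 5.37-fold for Mylpf and 4.76-fold for Myl2. Myosin-binding protein C and calsequestrin went the other way on that array. Slow Mybpc1 was 1.86-fold beside 1.36-fold for fast Mybpc2, and slow Casq2 was 1.54-fold beside 1.18-fold for fast Casq1. The difference between fast and slow isoforms was not tested.

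**Figure D2:**
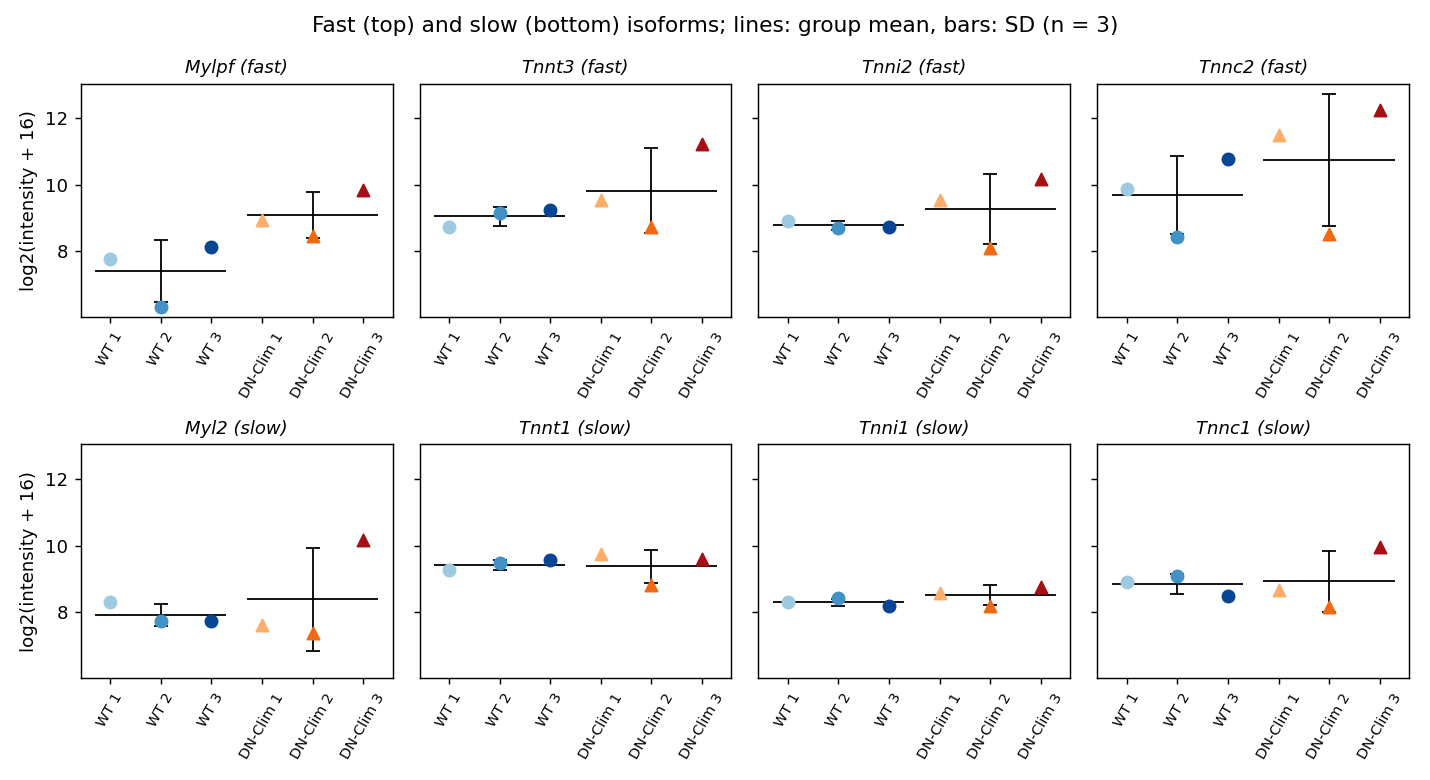
Each panel plots 1 gene as log2(intensity + 16) on the 6 arrays, with the fast isoform in the top row and its slow counterpart under it; lines are group means and bars the SD (n = 3). DN-Clim replicate 3 stands above all other arrays in every panel except Tnnt1, where DN-Clim replicate 1 reads 9.74 and DN-Clim replicate 3 reads 9.58.

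The other slow members showed the same array as the highest. Mybpc1, slow myosin-binding protein C of the thick filament, read 8.16, 7.76 and 8.09 on the WT arrays and 8.08, 7.80 and 8.89 on the DN-Clim arrays. Casq2, the calsequestrin of heart and slow fibres that stores calcium, read 6.99, 6.43 and 6.23 on the WT arrays and 6.38, 6.54 and 7.18 on the DN-Clim arrays. Their differences were 0.26 (SE 0.284) and 0.15 (SE 0.274), each with a limma adjusted p of 0.999. For both genes only DN-Clim replicate 3 lay above the WT range.

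The developmental heavy chains did not set the DN-Clim arrays apart. Myh3, embryonic myosin, read 7.03, 7.01 and 7.40 on the WT arrays and 7.58, 7.06 and 7.39 on the DN-Clim arrays. Myh8, the neonatal myosin, read 7.26, 7.85 and 8.12 on the WT arrays and 8.13, 7.65 and 8.56 on the DN-Clim arrays. The groups overlapped for both, with differences of 0.20 (SE 0.21) and 0.37 (SE 0.291) and limma adjusted p = 0.999. DN-Clim replicate 1 was the highest array for Myh3 and DN-Clim replicate 3 for Myh8.

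Summed over genes, the fast class stood highest over WT on DN-Clim replicate 3, but by the median gene the order of the classes turned. On that array the median member lay 0.54 above the WT mean for fast, 0.76 for slow, 0.53 for developmental and 0.42 for shared genes. The 10 fast genes summed to linear intensities of 2915, 2413 and 4090 on the WT arrays and to 5834, 2226 and 10529 on the DN-Clim arrays replicates 1, 2 and 3. DN-Clim replicate 3 was 3.35-fold and replicate 1 was 1.86-fold over the WT mean, and DN-Clim replicate 2 lay below every WT array. Tnnc2 alone had an intensity of 4829 on DN-Clim replicate 3 and Tnnt3 of 2375, and without Tnnc2 the ratios were 2.66 and 1.38. The 6 slow genes summed to 1869 to 2038 in WT, and DN-Clim replicates 1, 2 and 3 were 1.06-fold, 0.716-fold and 1.96-fold over the WT mean. For the developmental genes the highest ratio, on DN-Clim replicate 3, was 1.55, and for the 16 shared genes it was 1.39 on the same array. The second-highest array was DN-Clim replicate 1 in each class. In the shared class this rested on Pgam2, at a linear intensity of 844 on that array and 133 to 165 in WT. Without Pgam2 the shared sum on DN-Clim replicate 1 lay below that of every WT array.

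**Figure D3:**
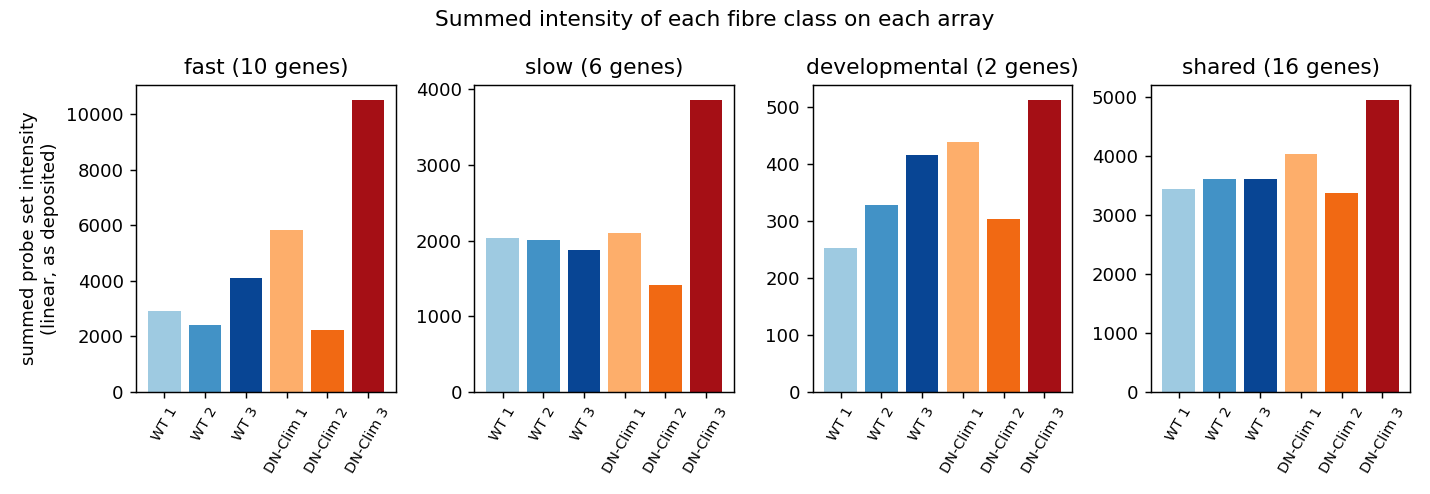
Bars give the summed linear intensity of the genes of each fibre class on each array, with axes that start at 0 and differ between panels. DN-Clim replicate 3 is the tallest bar in all 4 panels, at 10529 for fast and 3862 for slow genes.

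Among the genes that fibre types share, the filament proteins followed DN-Clim replicate 3. Acta1, skeletal actin, read 7.55, 8.09 and 8.40 on the WT arrays and 8.53, 7.93 and 9.30 on the DN-Clim arrays, with overlapping groups (0.57, SE 0.35, limma adjusted p = 0.963). Its coding sequence is close to that of the cardiac actin Actc1, and which probes the gene's probe set holds was not examined. Ttn, the giant spring of the sarcomere, and Neb, the ruler of the thin filament, were 2.12-fold and 1.75-fold over the WT mean on DN-Clim replicate 3. Xirp1 and Xirp2, actin-bundling proteins of muscle junctions, were 1.53-fold and 1.81-fold there. On that array Myog, the transcription factor that drives fibre differentiation, read 7.97, above the 6.81 to 7.39 of WT, and on DN-Clim replicates 1 and 2 it read 7.45 and 6.99.

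Myod1 and Des had differences no larger than their standard errors. Myod1, the myoblast determination factor, read 7.77, 7.99 and 8.28 on the WT arrays and 8.26, 7.04 and 8.30 on the DN-Clim arrays. DN-Clim replicate 2 was low and the other DN-Clim arrays were near the top of the WT range. Des, desmin, the intermediate filament of all muscle, read 7.42, 7.39 and 7.27 on the WT arrays and 7.18, 7.28 and 7.58 on the DN-Clim arrays. Its difference was -0.01 (SE 0.186), and its sign turned with both scalings tried. On DN-Clim replicate 3 the Z-disc actinins Actn2 and Actn3, the calcium pump Atp2a1, calsequestrin Casq1, the calcium release channel Ryr1, the creatine kinase Ckm, fast myosin-binding protein Mybpc2 and the M-band protein Myom2 were between 1.15-fold (Actn2) and 1.38-fold (Myom2) over the WT mean. Pvalb, the calcium buffer of fast fibres, was 1.53-fold there and 0.688-fold on DN-Clim replicate 2. For Actn2, Actn3, Atp2a1, Casq1, Ryr1, Ckm, Mybpc2, Myom2 and Pvalb, group differences ran from -0.13 to 0.15, and none passed.

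Trdn, triadin, which anchors calsequestrin to the release channel, had 19 probe sets with a single symbol. The brightest, used for the member, read 9.36, 9.52 and 9.19 on the WT arrays and 9.24, 8.65 and 9.34 on the DN-Clim arrays, with DN-Clim replicate 3 inside the WT range. Over the 19 probe sets the differences ran from -0.95 to 1.75, 13 of them above 0, and none passed (smallest limma adjusted p = 0.819). Another Trdn probe set read 4.52, 4.96 and 4.56 on the WT arrays, near the floor that the offset sets, and 7.96, 4.35 and 6.98 on the DN-Clim arrays. A further one, less dim, read 8.23, 8.32 and 8.65 on the WT arrays and 10.27, 8.07 and 9.48 on the DN-Clim arrays. Both were high on DN-Clim replicates 1 and 3, so the probe sets of this gene disagreed.

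Pgam2 followed another pattern. Pgam2, the muscle form of the glycolytic enzyme phosphoglycerate mutase, read 7.23, 7.50 and 7.22 on the WT arrays and 9.75, 10.05 and 8.07 on the DN-Clim arrays. All DN-Clim arrays lay above all WT arrays, but replicates 1 and 2 were the high ones, at 5.4-fold and 6.64-fold over the WT mean, and replicate 3 stood at 1.69-fold. The means were 7.31 ± 0.16 in WT and 9.29 ± 1.07 in DN-Clim (SD, n = 3 each), 1.97 apart (SE 0.442, limma adjusted p = 0.512). Pgam2 was the 1 member for which DN-Clim replicates 1 and 2 both exceeded the other 4 arrays by more than 0.5, as 1.06% of all probe sets did.

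Chrna1 and Myom1 had the lowest differences. Chrna1, the alpha subunit of the muscle acetylcholine receptor, read 8.04, 8.02 and 7.61 on the WT arrays and 6.57, 6.12 and 7.81 on the DN-Clim arrays. DN-Clim replicates 1 and 2 were low and replicate 3 was inside the WT range. The difference was -1.06 (SE 0.384, limma adjusted p = 0.788). Myom1, an M-band protein, read 7.80, 7.62 and 7.72 on the WT arrays and 7.02, 6.96 and 7.55 on the DN-Clim arrays, with all DN-Clim arrays below all WT arrays. Its difference was -0.54 (SE 0.209, limma adjusted p = 0.802). Of the 34 members 2, Mylpf and Pgam2, had all DN-Clim arrays above all WT arrays (3.2% of all probe sets), and 1, Myom1, had them all below (6.95%).

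The arrays on which Pgam2 was high and Chrna1 low were those with lens signal. The 16 lens markers measured, mostly crystallins, summed to 5839 to 9832 on the WT arrays and 4807 on DN-Clim replicate 3, but to 136235 and 136117 on DN-Clim replicates 1 and 2. The median lens marker was 3.95 and 4.16 above the WT mean on those 2 arrays and -0.14 on DN-Clim replicate 3. Other lists also set these 2 arrays apart from WT. On DN-Clim replicates 1 and 2, keratocyte medians were -0.78 and -1.09 relative to the WT mean, and tendon medians -0.76 and -1.21. Pigment cell and retina markers summed to 12121 and 12045, against 5580 to 9300 in WT. Corneal epithelial markers summed to 19005 and 16646, against 22240 to 23768. The part of the lens signal, or of these other lists, in the Pgam2 and Chrna1 values was not tested.

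**Figure D4:**
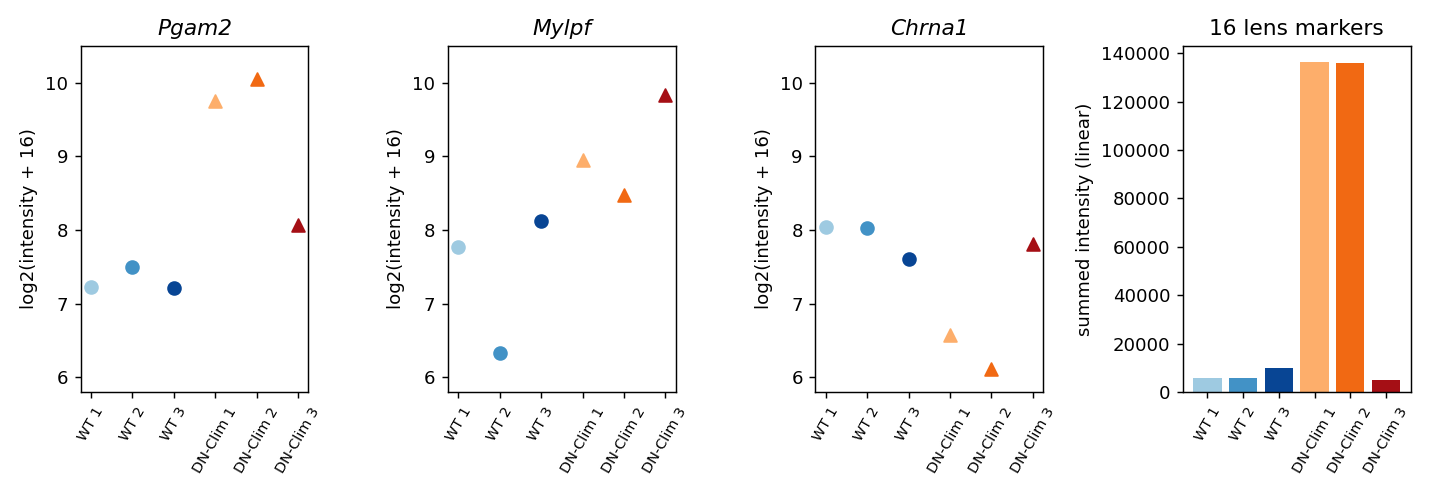
The first 3 panels plot Pgam2, Mylpf and Chrna1 as log2(intensity + 16) on each array, and the bars give the summed linear intensity of the 16 lens markers. Pgam2 is high and Chrna1 low on DN-Clim replicates 1 and 2, where the lens bars are tall, while Mylpf is highest on DN-Clim replicate 3, where the lens sum is 4807.

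The calls depended on which DN-Clim arrays were used. Without DN-Clim replicate 3, Pgam2 rose by 2.58 (SE 0.176, limma adjusted p = 0.00104) and Chrna1 fell by 1.55 (SE 0.211, adjusted p = 0.0143), where 0.547% of all probe sets rose and 1.52% fell. Mylpf did not pass in that fit (1.31, SE 0.466, limma adjusted p = 0.182). With DN-Clim replicate 3 alone against WT, 6 of 23410 probe sets rose (0.0256%), and 3 of them were members, while no member was among the 0.312% that fell. They were Tnnt3 (2.18, SE 0.239, limma adjusted p = 0.0404), Myl2 (2.25, SE 0.26, adjusted p = 0.0404) and Tnni2 (1.39, SE 0.192, adjusted p = 0.0442). The other 3 were the second Trdn probe set described above (2.30), Erich5 (1.31) and an olfactory receptor probe set. This fit assumes that the single DN-Clim array varies as WT arrays do, and neither set of p-values accounts for the choice of arrays after their values were seen.

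**Figure D5:**
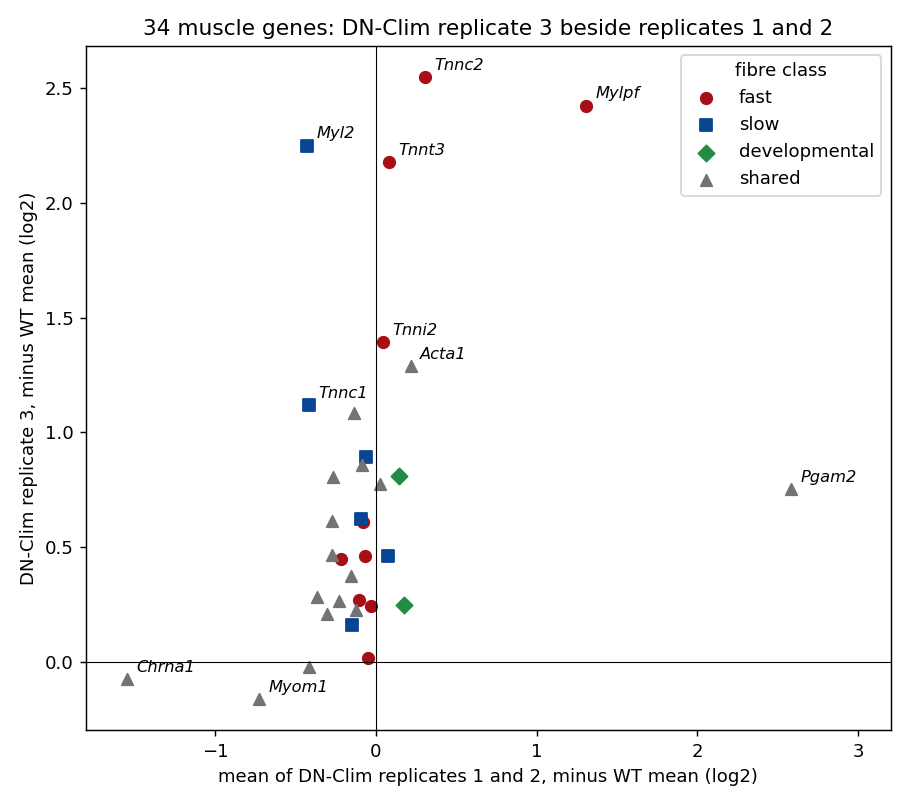
Each point is 1 of the 34 muscle genes, with the mean of DN-Clim replicates 1 and 2 on the x axis and DN-Clim replicate 3 on the y axis, both as log2 differences from the WT mean that they share. Tnnc2, Myl2, Tnnt3 and Tnni2 lie high on the y axis and within 0.5 of 0 on the x axis, Mylpf is high on both, and Pgam2 stands at 2.58 on the x axis and 0.75 on the y axis.

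Over the whole table, the 2 probe sets with the widest lead of DN-Clim replicate 3 over every other array were members. Myl2 led by 1.88 and Tnnt3 by 1.68. A lead above 1 was seen for 12 of 23410 probe sets (0.0513%). Besides Myl2 and Tnnt3 they held Actc1, cardiac actin, which fetal skeletal muscle also uses (1.02), and Lmod2, a leiomodin of striated muscle thin filaments (1.00). The rest were 4 olfactory receptors, 2 microRNA genes, Pate14 and Lce3a. These 12 were singled out after their values were seen.

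Many members were dim. 10 of 34 members had a mean above the median of all probe sets tested. That mean includes the DN-Clim arrays, and Acta1 and Pgam2 were among the 10 through arrays on which they were high. A split on the WT mean alone, added after seeing the data, kept 8 members. Of these 8, 6 were highest on DN-Clim replicate 3, against 18.5% of all probe sets in the brighter part. Tnnt3, Tnni2, Tnnc2 and Tnnc1, 4 of the 8, led by more than 0.5 there, against 1.37%. With quantile normalization, 22 of 34 members were highest on that array (30.7% of all probe sets), and with median centring 24 (26.1%). A lead above 0.5 then held for 11 members (2.83%) and for 8 members (1.76%). With a smaller or a larger offset it held for 13 members (4.58%) and 9 members (1.67%).

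Other striated muscle genes, 50 of 51 listed being measured, were mostly, but not all, highest on the same array. None passed in either direction with all 6 arrays (smallest limma adjusted p = 0.82). On DN-Clim replicate 3, 33 of 50 were highest (34.6% of all probe sets) and 12 of 50 led by more than 0.5 (3.56%). Their summed intensity was 14080 to 15566 in WT and 10517 to 18361 in DN-Clim, with DN-Clim replicate 3 at the top. Their median difference was -0.04, the same as over all probe sets (-0.04). The largest differences were those of Myh2, a fast heavy chain (-0.77), Apobec2, a muscle cytidine deaminase family member (0.63), and Jph2, a junctophilin (-0.51). On DN-Clim replicate 3 the fast heavy chains Myh1, Myh2 and Myh4 were at 0.09, 0.08 and -0.25 relative to the WT mean. They did not rise there with the fast troponins and Mylpf. Apobec2 read 7.38, 7.72 and 8.02 on the WT arrays and 8.40, 7.88 and 8.73 on the DN-Clim arrays. Myh13, the heavy chain typical of extraocular muscle, read 6.68, 7.05 and 6.76 on the WT arrays and 6.74, 6.70 and 7.01 on the DN-Clim arrays, with overlapping groups.

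Myoblast and neuromuscular genes, 15 of 15 measured, had 11 highest on DN-Clim replicate 3 (34.6% of all probe sets) but only Myf6 with a lead above 0.5 (3.56%). None passed (smallest limma adjusted p = 0.867). Mef2c, a transcription factor also used outside muscle, differed by -0.45, Chrnb1, a receptor subunit, by -0.38, and Myf6, a myogenic factor, by 0.26. Pax7, the satellite cell factor, read 7.56 to 7.81 in WT and 7.95 on DN-Clim replicate 3. Of 10 heart muscle markers, which include genes that fetal skeletal muscle uses, none passed. On DN-Clim replicate 3, 7 of these 10 were highest, against 34.6% of all probe sets, and 1, Myl4, led by more than 0.5 (3.56%). Their median there was 0.43 above the WT mean, beside 0.32 for the other striated muscle genes. Myl4 and Sln are on both lists. Tnnt2, cardiac troponin T, read 8.92, 8.84 and 8.56 on the WT arrays and 9.70, 9.39 and 9.48 on the DN-Clim arrays, so that the groups did not overlap (0.75, SE 0.19, limma adjusted p = 0.612). Tnni3, cardiac troponin I, differed by -0.30 and Nppb, a natriuretic peptide, by -0.21.

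Smooth muscle and tendon markers had medians near the WT mean on DN-Clim replicate 3. Of 13 smooth muscle and pericyte markers and 10 tendon markers none led by more than 0.5 on that array. As 3.56% of all probe sets did so, counts of 0 say little in lists this short. There, 4 of 13 and 1 of 10 were highest (34.6% of all probe sets). None passed in the comparison of all 6 arrays. Their medians on DN-Clim replicate 3 were -0.01 and -0.08 relative to WT. Acta2, smooth muscle actin, differed by -1.45 (SE 0.313, limma adjusted p = 0.498), Pdgfrb, a pericyte receptor, by -1.07 and Cnn1, calponin, by -0.94. Tnmd, tenomodulin, read 10.53, 10.18 and 10.89 on the WT arrays and 8.30, 7.01 and 9.21 on the DN-Clim arrays (-2.36, SE 0.47, limma adjusted p = 0.411). Without DN-Clim replicate 3, Tnmd fell by 2.88 (limma adjusted p = 0.0106). The tendon proteins Thbs4 and Fmod differed by -1.43 and -1.21. The summed tendon markers were 20514 to 23984 in WT and 7850 to 19988 in DN-Clim, with DN-Clim replicate 3 the highest of the latter. That list includes Kera, which is also on the keratocyte list and read 12.56 to 13.09 in WT. The sum is therefore not specific to tendon. The markers of iris pigment and retina summed to 5580 to 9300 in WT and 3024 on DN-Clim replicate 3. Dct, an enzyme of melanin synthesis, was at 10.45, 10.63 and 10.99 on the WT arrays and 8.35 on DN-Clim replicate 3. The median of the list there was -1.11, and the part of these markers in the muscle values was not tested.

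On DN-Clim replicate 3, where muscle members were highest, conjunctival markers summed to 8548, inside the WT range of 7458 to 12816, and corneal epithelial markers to 22840, inside 22240 to 23768. Keratocyte markers summed to 28236, inside 25018 to 30306. WT replicate 1 alone set the top of the conjunctival range, and WT replicates 2 and 3 were at 7640 and 7458. Whether muscle attached to the eye was carried with the cornea into this sample was not tested.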

How the data were processed

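Probe set intensities on a linear scale are the authors' deposited values. Affymetrix Expression Console 1.1 and PLIER are named in the submitters' processing notes; how background and differences between arrays were handled is not given in the sources used here. Values were taken as log2(intensity + 16). No normalization was added, since the array medians spanned 0.267, less than a limit of 0.5. Of 35557 probe sets, 23410 were paired with at least 1 gene by the platform annotation and tested in limma 3.58.1 (R 4.3.3; lmFit, eBayes, 3 DN-Clim against 3 WT, Benjamini-Hochberg, threshold 0.05). The fit was tested on simulated data. Members and gene lists were chosen with earlier results of these data known. Values on every array are given for members past the threshold, for Mylpf, Pgam2, Myog, Myod1 and Des, and for the 4 largest differences of each fibre class, and further members were added after their values were seen; of each muscle, heart, smooth muscle and tendon list up to 3 genes are named by size, others after their values were seen. Number of arrays limits the precision. Same-number correlations of deviations from the group means were 0.02, -0.21 and -0.44, which gave no sign of pairing by replicate number. Deviations from a mean of 3 arrays are tied to one another, so these correlations cannot exclude a pairing. Promoters are from RefSeq (GRCm38.p6), matched by symbol.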

Additional observations from a re-analysis of the deposited data

How the results depend on the processing

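Alternatives changed 1 choice at a time: a smaller or larger offset, quantile normalization, median centring, a filter on dim probe sets, all probe sets tested, a trended robust prior, array weights, a replicate block, the mean of a gene's probe sets, and each array left out. DN-Clim replicate 3 alone against WT was added after seeing the data. Against 3 probe sets past the threshold there were 1 with quantile normalization, 0 with all probe sets, 5 with the trended prior, 5 with mean probe sets, 9004 with array weights, 79 with DN-Clim replicate 3 alone, and 0 to 483 with an array left out. The array weights did not converge and gave DN-Clim replicate 1 a weight of 34.9. Against 0 members there were 10 with array weights, 3 with DN-Clim replicate 3 alone, and 0 to 2 with an array left out. With the replicate block 9 probe sets and 0 members passed, and Tnmd did (limma adjusted p = 0.0302). Whether the replicate numbers pair the samples is not known. Leads above 0.5 on DN-Clim replicate 3 held for 8 members with centring (1.76% of all probe sets) and 5 with the dim filter. The dim filter keeps 10 members, none developmental. Of these, 7 were highest on that array and 1 had all DN-Clim arrays above WT. That filter's mean includes DN-Clim replicate 3, and shares over the probe sets it keeps were not computed, so its counts have no background. With a filter on the WT mean, added after seeing the data, 6 members were highest on DN-Clim replicate 3 (18.5% of the probe sets kept). On that array 4 led by more than 0.5 (1.37%). The count of members with all DN-Clim arrays above WT was 2 to 11 with an array left out, 11 without DN-Clim replicate 2. Groups separate more readily with fewer arrays, and the shares over all probe sets were not computed for these fits. These counts therefore have no background and are not read as a result about the members. The fast median was 0.78 with the dim filter. On DN-Clim replicate 3 alone the medians were 0.54 over all members, 0.54 fast, 0.76 slow and 0.42 shared; without that array they were -0.10, -0.04, -0.12 and -0.25. Signs turned as follows. Des was at 0.094 with quantile normalization, 0.062 with centring, 0.23 on DN-Clim replicate 3 alone, and -0.13 to 0.077 with an array left out. Myod1 was at 0.24 with array weights, 0.28 on DN-Clim replicate 3 alone, and -0.36 to 0.26 with an array left out. Array weights gave -0.22 for Myl2 and -0.12 for Casq2. With an array left out, Myl2 ran from -0.43 to 0.97, Casq2 from -0.091 to 0.37, Mybpc1 from -0.063 to 0.49 and Myf6 from -0.0017 to 0.47, each lowest without DN-Clim replicate 3. On DN-Clim replicate 3 alone Myh2 was at 0.076, Jph2 at 0.085 and Mef2c at 0.095. Beyond the array weights' failure the cause was not tested. Of 278 values of the named members under alternatives, 248 had the sign and the call given in the report, 16 turned sign and 14 gained a call.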
